A study of Mus musculus with 12 samples.

Results

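The collagen genes of Myc-CaP cells (a Myc-overexpressing prostate cancer line from FVB/NJ mice) were followed through treatment with oxaliplatin (Oxali), a platinum compound that crosslinks DNA, and interferon γ (IFNγ). A gene was taken as a member where its symbol was Col, a number, a and a number, and where at least 10 counts were reached in at least 2 of the 12 libraries. The count table held 44 such symbols among 55216 genes, and 14 of them were members. They were Col4a1, Col4a2, Col4a5, Col5a1, Col6a3, Col7a1, Col9a3, Col11a1, Col11a2, Col12a1, Col16a1, Col17a1, Col18a1 and Col27a1. The rule used the size of the counts and not any difference between groups.

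Poly(A) RNA was sequenced 48 h after treatment in 6 groups of 2 libraries each. Ctrl cells were untreated, IFN200 and IFN2000 received IFNγ at 200 and 2000 pg as the labels state it, and Oxali received 2 µM oxaliplatin. Combo200 and Combo2000 received 2 µM oxaliplatin together with 200 or 2000 pg of IFNγ. All groups are the same line, with no genetic change between them, and separate cultures behind the replicates are not stated, so that p-values measure the spread between these libraries, which may be technical. Groups follow the sample titles. In the 6 single-treatment libraries the label for the agent names another single treatment than the title does. If that label were right, the names IFN200, IFN2000 and Oxali would change places, and every single-treatment comparison below would change its name. The comparisons of Combo groups with single treatments, the interactions and the split into libraries with and without Oxali would then not compare what they are named for. A list of 10 genes of the IFNγ response had mean log2 ratios to Ctrl of 1.15 and 1.31 in IFN200, 3.63 and 3.70 in IFN2000 and 1.68 and 1.74 in Oxali. Of a list of 10 p53 targets 9 were tested. Their mean ratio lay between -0.07 and 0.23 in the libraries titled without Oxali and between 0.54 and 0.75 in those titled with it.

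Collagens are extracellular proteins of 3 chains wound into a triple helix, and each chain has its own gene. Fibrillar collagens such as type V and type XI form and limit fibrils, type IV collagen makes the network of basement membranes, and the fibril-associated collagens such as types XII and XVI sit on the surface of fibrils. Type VII collagen forms the anchoring fibrils beneath epithelia, and type XVII is a transmembrane collagen of hemidesmosomes. Most collagen of a solid tumour is made by fibroblasts, while epithelial cells make mainly basement membrane and anchoring collagens.

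Library totals ran from 18749975 to 25931516 counts, and 3 counts, the limit that a count of 0 allows, were 0.111 to 0.167 CPM (counts relative to library size, scaled by edgeR's TMM). This limit and the counting intervals below cover counting error only. Several libraries or markers stand apart and touch the values below. IFN2000 replicate 2 held reads of 10 of 12 T cell markers, summing to 16.1 CPM against 0.217 to 1.35 in the other 11 libraries, with 175 counts of Gzmb. IFN200 replicate 1 held reads of 12 of 12 heart muscle markers, summing to 12.4 CPM, and there Col1a1, Col1a2 and Col3a1, collagens abundant in connective tissue, had 3, 1 and 2 counts. The endothelial list stayed at or under 0.391 CPM in every library. Of the epithelial markers Epcam had no counts in any library and Cdh1 at most 6, while Krt8, Krt19, Cldn3 and Hoxb13 were present throughout.

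Read per kilobase of exon, the order in Ctrl began with Col5a1 at 13.9 ± 0.0342 CPM per kb, Col4a1 at 12.3 ± 0.0963, Col4a2 at 8.91 ± 0.461, Col4a5 at 4.41 ± 0.211 and Col12a1 at 2.93 ± 0.115 (SD, n = 2). These 5 did not overlap their neighbours in the order. Col11a1 at 0.570 ± 0.00950 and Col7a1 at 0.450 ± 0.0443 CPM per kb followed. Col16a1 stood at 0.192 ± 0.0151, and the neighbours Col6a3 at 0.125 ± 0.0145 and Col11a2 at 0.116 ± 0.00765 overlapped. Col18a1 followed at 0.0451 ± 0.00771, and Col9a3, Col17a1 and Col27a1 were lower and overlapped one another. In Oxali Col12a1 passed Col4a5 without overlap, with 9.78 ± 0.755 against 4.78 ± 0.109 CPM per kb. Col11a2 at 0.266 ± 0.0320 then stood above Col6a3 at 0.146 ± 0.0480, and Col17a1 at 0.0936 ± 0.00233 above Col9a3 at 0.0431 ± 0.0441, pairs that overlapped in Ctrl.

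Col5a1 alone held 31.8 to 34.5% of the members' summed CPM. It was the highest member in each of the 12 libraries. The fibrillar collagens of fibroblasts, by contrast, were at or near 0: Col1a1 had at most 3 counts in 11 libraries and 16 in Combo2000 replicate 2, Col1a2 at most 1 and Col3a1 at most 2. Of the 30 symbols that were not members, 27 never reached 10 counts, 5 of them without a count in any library, and 3 reached 10 in a single library. These 3 were Col14a1, Col1a1 and Col4a4, with highest counts of 11, 16 and 12. Just inside the rule were Col27a1, with 10 and 11 counts in its highest libraries, and Col9a3 with 12 and 14.

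Several members were measured with few or no counts of some of the chains they can assemble with. Col5a1, whose chain joins with those of Col5a2 and Col5a3, had 2127 to 6013 counts per library, but Col5a2 had at most 2 and Col5a3 at most 1. Col6a3 had 20 to 84 counts while its partners Col6a1 and Col6a2 had at most 9 and 8. Col4a5 had 515 to 881 counts and Col4a6 at most 5, and Col9a3 had at most 14 counts with Col9a1 at 0 and Col9a2 at most 1.

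Col4a1 and Col4a2, which encode the chains of the common type IV heterotrimer, were both abundant. Their ratio per kb of exon lay between 1.25 and 1.53 in the 12 libraries, with a median of 1.41. In Ctrl it was 1.39 ± 0.0609 and in Oxali 1.39 ± 0.0326 (SD, n = 2). The genes lie head to head on chromosome 8 (GRCm38), Col4a1 at chr8:11198423-11312826 on the minus strand and Col4a2 at chr8:11312805-11449287 on the plus strand, and their first exons share 22 bases. Whether the counting used the strand is not given in the sources used here, so reads in such overlaps cannot be assigned. The same holds for Col5a1, which shares 99 and 113 exon bases with the opposite-strand genes 2810430I11Rik and Gm13372, and for Col9a3, which shares 234 with Tcfl5. Col4a2 shares a further 43 with the antisense gene Gm15419, and Col7a1 holds the 36 bases of the microRNA gene Mir711.

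The members are long and rich in G and C, which the rule did not use. Their merged exons ran from 3853 bases (Col9a3) to 15228 bases (Col12a1) with a median of 7242.5, against a median of 4094 over the 13043 tested genes with a length. Of 5 length classes of equal size, 7 members fell in the longest, of 7159 bases or more, 6 in the fourth and 1 in the third. The median GC content of the exons was 58.6% against 49.7% over all genes. Exon blocks numbered from 33 in Col9a3 to 116 in Col7a1, and Col16a1 (ENSMUSG00000040690.15, chr4:130047840-130099283, plus strand) had 72.

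The other members lie apart from one another in the genome (GRCm38). Among fibrillar chains, Col5a1 is at chr2:27886425-28039514 (plus strand), Col11a1 at chr3:114030540-114220718 (plus), Col11a2 at chr17:34039437-34066685 (plus) and Col27a1 at chr4:63214004-63334991 (plus). Col9a3 is at chr2:180597790-180622189 (plus) and Col12a1 at chr9:79598991-79718831 (minus). Col4a5 is at chrX:141475385-141689234 (plus), Col6a3 at chr1:90765923-90843971 (minus) and Col7a1 at chr9:108953586-108984875 (plus). Col17a1 is at chr19:47646344-47692094 (minus) and Col18a1 at chr10:77052178-77166548 (minus). Each pair of coordinates spans the whole gene, and the counts are of its exons.

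For 12 of the 14 members RefSeq's table for GRCm38.p6 gave the sequence at the gene start, in 13 windows because Col18a1 has a pair of starts. Col9a3 and Col12a1 were not matched. Over the 250 bases upstream of the start, both strands were searched for 7 motifs. A GC box (GGGCGG) was found in 9 of 13 member windows and in 32.7% of all 32851 windows in the table, and CCAAT in 8 of 13 against 33.8%. TATAAA was found in 2 of 13 against 12.4% and the TEAD motif GGAATG in 1 of 13 against 12.6%. The AP-1 motif TGANTCA, the GAS element TTCNNNGAA and the E-box CACGTG were in 0 of 13 windows, against 6.75%, 7.02% and 6.02% of all windows. These letters were thus absent from the windows read, which says nothing of the factors.

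The upstream windows of 4 members that were higher with Oxali, from the fibril-associated, fibrillar and anchoring fibril classes, are shown 5′ to 3′ in the direction of the gene, with GC boxes and CCAAT boxes on either strand in capitals. They lie at chr4:130047590-130047839 (plus strand) for Col16a1, chr3:114030290-114030539 (plus strand) for Col11a1, chr2:27886175-27886424 (plus strand) for Col5a1 and chr9:108953336-108953585 (plus strand) for Col7a1.
Col16a1: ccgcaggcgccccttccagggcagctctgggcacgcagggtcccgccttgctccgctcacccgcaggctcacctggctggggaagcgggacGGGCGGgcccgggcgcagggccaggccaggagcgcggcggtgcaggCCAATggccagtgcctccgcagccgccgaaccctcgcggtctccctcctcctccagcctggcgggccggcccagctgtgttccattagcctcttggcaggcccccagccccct
Col11a1: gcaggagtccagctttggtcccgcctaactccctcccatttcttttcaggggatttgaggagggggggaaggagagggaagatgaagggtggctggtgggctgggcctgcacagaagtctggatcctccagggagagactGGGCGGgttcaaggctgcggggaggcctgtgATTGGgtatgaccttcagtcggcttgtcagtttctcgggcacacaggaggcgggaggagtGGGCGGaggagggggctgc
Col5a1: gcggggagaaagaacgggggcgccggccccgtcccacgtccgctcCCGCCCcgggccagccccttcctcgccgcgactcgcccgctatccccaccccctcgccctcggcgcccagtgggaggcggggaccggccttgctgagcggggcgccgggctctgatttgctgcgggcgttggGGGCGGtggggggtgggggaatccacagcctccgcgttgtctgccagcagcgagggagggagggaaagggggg
Col7a1: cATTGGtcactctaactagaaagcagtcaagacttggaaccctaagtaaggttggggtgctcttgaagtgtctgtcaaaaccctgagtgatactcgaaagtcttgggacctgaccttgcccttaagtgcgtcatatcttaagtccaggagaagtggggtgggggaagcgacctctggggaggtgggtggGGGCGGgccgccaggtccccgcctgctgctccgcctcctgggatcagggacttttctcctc
The windows of Col16a1, Col11a1, Col5a1 and Col7a1 are 75.6, 62.4, 76.4 and 56.4% G and C, against a median of 52.4% over all windows. Col16a1 and Col7a1 each hold a GC box and a CCAAT box, Col11a1 a pair of GC boxes and a CCAAT box, and Col5a1 a pair of GC boxes. The window of Col17a1, not printed, has 46.0% G and C, no GC box and 2 TATA boxes.

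The comparison of Oxali with Ctrl asks what oxaliplatin does alone, and those of Combo200 with IFN200 and of Combo2000 with IFN2000 ask the same in the presence of IFNγ. Collagen genes were higher with Oxali. In Oxali against Ctrl 11 of 14 members rose and 0 fell, with a median log2 fold change of 1.38. Over all 13177 genes tested the median was 0.02, and 34.8% were called higher and 32.8% lower. Calls are those of edgeR's quasi-likelihood test at an adjusted p (Benjamini-Hochberg) under 0.05. In Combo200 against IFN200 10 members rose and 0 fell, with a median of 0.87, where 36.5% of all genes were higher and 33.5% lower. In Combo2000 against IFN2000 14 rose, with a median of 1.23, where 38.5% of all genes were higher and 33.8% lower. These 3 comparisons share no library. Without IFN200 replicate 1 the second count was 9, and without IFN2000 replicate 2 the last was 12. The smallest two-sided p that an exact permutation test of 2 libraries against 2 can give is 0.333, and the calls therefore rest on a spread shared over genes and groups.

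**Figure D1:**
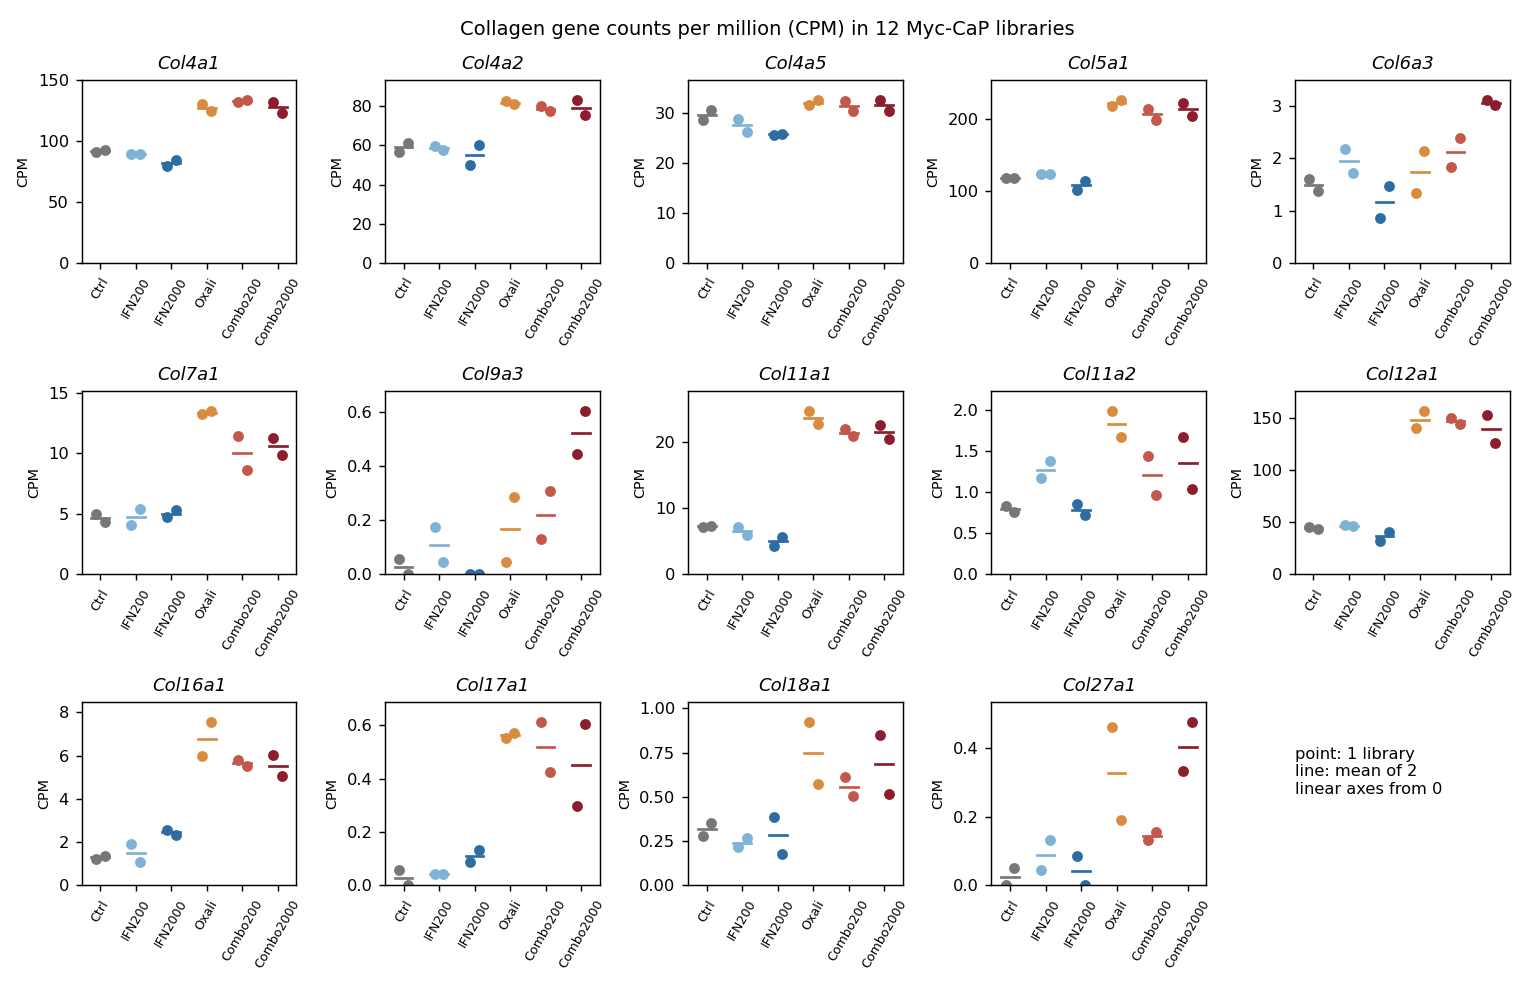
CPM of each of the 14 collagen genes (vertical axis, linear from 0) in the 6 groups (horizontal axis), with 1 point per library and a line at the mean of 2. In 9 panels, among them Col5a1, Col12a1 and Col16a1, the 6 libraries with Oxali all lie above the 6 without, while Col4a5 and Col6a3 overlap.

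For 4 members, Col9a3, Col17a1, Col18a1 and Col27a1, 10 counts were reached only in libraries with Oxali, so they entered the test through the group where they were high and lend no support to the count. Among the other 10, which reached 10 counts in all 12 libraries, 8, 8 and 10 rose in the 3 comparisons and 0 fell, with medians of 1.05, 0.66 and 1.03. All 6 libraries with Oxali lay above all 6 without in 9 of 14 members, 7 of them among those 10. The same separation was found in 31.8% of all genes tested. Called higher at all 3 levels of IFNγ were 9 of 14 members against 29.6% of all genes. Among genes that reached 10 counts in at least 2 libraries without Oxali it was 7 of 10 members against 28.8% of 12396 genes. The 5 members not called at all levels were Col4a5, Col6a3, Col9a3, Col11a2 and Col27a1.

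In bulk RNA more collagen-expressing cells and more collagen RNA per cell cannot be told apart. Genes of the fibroblast and stromal list moved with Oxali too: their summed level was 4412 to 6804 CPM without Oxali and 10808 to 12460 CPM with it, mostly from Fn1 (fibronectin). Of its 11 genes 7 were tested, and 6 rose and 0 fell in Oxali against Ctrl. Among all genes 34.8% were higher there and 32.8% lower. Postn, which encodes the matrix protein periostin, had 2 to 4 counts without Oxali and 20 to 32 with it. It entered the test only through the libraries with Oxali and lends no support to the count of 6. Fbln1 (fibulin 1) had 18 to 38 counts without Oxali and 54 to 91 with it. Twist2 had 11.1 to 14.7 CPM without Oxali and 14.4 to 19.6 with it, Pdgfra 9.87 to 17.3 and 20.8 to 25.5, and Vim (vimentin) 374 to 424 and 662 to 683. Pdgfrb, at 11.6 to 14.8 and 11.9 to 14.9 CPM, was not called. The other 4 were Fap and Lum at 0 in every library, Dcn at 0 or 1 count, and Thy1 at no more than 2 except for 70 counts in IFN2000 replicate 2.

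Genes of the heart muscle and epithelial lists differed with Oxali as well. The heart muscle list summed to 4.40 to 6.96 CPM in the libraries with Oxali, against 1.22 to 1.55 in those without it other than IFN200 replicate 1. Most of this was Tnnt2, at 68 to 125 counts with Oxali and 15 to 47 without. Tnnt2 and Myh7 were the 2 of its 3 tested genes that rose in Oxali against Ctrl, and Tnnc1 was not called. Among all genes 34.8% were higher in that comparison and 32.8% lower. Outside IFN200 replicate 1, with 58 counts, Myh7 had at most 1 count without Oxali, and 7 to 15 with it. It too entered the test through the libraries with Oxali. Among epithelial markers Krt19 was at 133 to 170 CPM without Oxali and 88.2 to 99.2 with it, Cldn3 at 274 to 346 and 212 to 257, and Hoxb13 at 40.3 to 45.1 and 29.2 to 32.7, and these 3 fell in Oxali against Ctrl. Krt8 and Cldn4 rose there, with log2 fold changes of 0.21 and 0.38. The part of these lists in the collagen values was not tested.

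The summed CPM of the 14 collagen genes was 359 ± 2.71 in Ctrl, 362 ± 4.01 in IFN200 and 323 ± 27.2 in IFN2000 (SD, n = 2). It was 662 ± 12.8 in Oxali, 639 ± 19.5 in Combo200 and 637 ± 48.9 in Combo2000.

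Among fibrillar collagens, Col5a1, which helps set the diameter of fibrils, had 118 and 118 CPM in the Ctrl libraries, 123 and 124 at 200 pg of IFNγ and 102 and 115 at 2000 pg. Oxali alone gave 218 and 227 CPM, Combo200 gave 214 and 199, and Combo2000 gave 223 and 205. Every library with Oxali lay above every library without. The log2 fold change of Oxali against Ctrl was 0.91 (SE 0.05, adjusted p = 1.11e-11).

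Col11a1, a chain of the fibrillar collagen of cartilage that many carcinomas also express, was far lower in level. Ctrl had 7.18 and 7.35 CPM, IFN200 7.12 and 5.88 and IFN2000 4.33 and 5.67. Oxali had 24.7 and 22.8 CPM, Combo200 22.1 and 21.0 and Combo2000 22.6 and 20.6. The groups did not overlap, and the log2 fold changes with Oxali were 1.71 (SE 0.11), 1.72 (SE 0.10) and 2.12 (SE 0.11) without IFNγ, at 200 pg and at 2000 pg. Its partner chain Col11a2 was low, at 0.835 and 0.760 CPM in Ctrl, while IFN200 had 1.17 and 1.37 and IFN2000 had 0.857 and 0.714. Oxali alone had 1.98 and 1.67 CPM, Combo200 1.44 and 0.966 and Combo2000 1.67 and 1.03. Col11a2 thus rose in Oxali against Ctrl (log2 fold change 1.19, SE 0.31) and in Combo2000 against IFN2000 (0.80, SE 0.31), while Combo200 and IFN200 overlapped (-0.09, SE 0.29).

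Col12a1, a fibril-associated collagen of tissues under mechanical load, had 45.9 and 43.4 CPM in the untreated libraries, 47.3 and 46.0 at 200 pg and 32.3 and 41.1 at 2000 pg of IFNγ. With Oxali added, the same IFNγ levels gave 141 and 157, 150 and 145, and 154 and 126 CPM. Every library with Oxali again lay above every one without. The log2 fold changes with Oxali were 1.74 (SE 0.09, adjusted p = 1.57e-12), 1.66 (SE 0.09) and 1.94 (SE 0.09). Its share of the members' summed CPM was 10.6 to 12.9% without Oxali and 21.0 to 23.4% with it. The share of Col4a1 moved the other way, from 24.4 to 26.3% without Oxali to 18.6 to 21.4% with it.

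Col16a1, a minor fibril-associated collagen, had 1.22 and 1.37 CPM in untreated cells, 1.91 and 1.06 in IFN200 and 2.57 and 2.32 in IFN2000. Oxali had 5.99 and 7.54 CPM, Combo200 5.80 and 5.53 and Combo2000 6.04 and 5.04. In counts this was 22 to 60 per library without Oxali and 117 to 163 with it. The lowest library with Oxali lay above the highest without. The log2 fold change was 2.37 in Oxali against Ctrl (SE 0.22, adjusted p = 1.13e-08), 1.92 in Combo200 against IFN200 (SE 0.21) and 1.18 in Combo2000 against IFN2000 (SE 0.19).

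The chains of the basement membrane network had smaller log2 fold changes. For Col4a1, Ctrl had 91.5 and 92.5 CPM, IFN200 89.2 and 89.8 and IFN2000 79.7 and 84.6, while Oxali had 131 and 125, Combo200 132 and 134 and Combo2000 132 and 123. Its log2 fold changes with Oxali were 0.47, 0.57 and 0.64, each with an SE of about 0.05, and those of Col4a2 were 0.47, 0.42 and 0.52 with SEs of 0.06 to 0.07. Col4a2 had 56.8 and 61.1 CPM in Ctrl, 59.8 and 57.5 in IFN200 and 50.1 and 60.2 in IFN2000, while Oxali gave 82.3 and 81.2, Combo200 gave 79.8 and 77.4, and Combo2000 gave 83.0 and 75.2. For both chains every library with Oxali lay above every one without. Col4a5, the chain mutated in X-linked Alport syndrome, changed least, with 25.7 to 30.7 CPM without Oxali and 30.4 to 32.6 CPM with it, ranges that overlap. Its log2 fold change of 0.11 (SE 0.07, adjusted p = 0.135) in Oxali against Ctrl was not called, while 0.19 at 200 pg and 0.29 at 2000 pg of IFNγ were.

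Col7a1, the chain of anchoring fibrils, had 4.04 to 5.39 CPM in the 6 libraries without Oxali, 13.2 and 13.5 with Oxali alone, and 11.4 and 8.62 in Combo200 against 11.2 and 9.87 in Combo2000. It rose at each level of IFNγ, by 1.53 (SE 0.15), 1.08 (SE 0.15) and 1.09 (SE 0.14) on the log2 scale.

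Col6a3, a chain of beaded filaments, rose in 1 of the 3 comparisons. Ctrl had 1.61 and 1.37 CPM, IFN200 2.17 and 1.72 and IFN2000 0.857 and 1.47. Oxali had 1.34 and 2.15 CPM, Combo200 1.83 and 2.40 and Combo2000 3.11 and 3.02. Only the Combo2000 libraries stood above all the others. The log2 fold change was 0.22 in Oxali against Ctrl (SE 0.29, adjusted p = 0.516), 0.13 in Combo200 against IFN200 (SE 0.25, adjusted p = 0.663) and 1.40 in Combo2000 against IFN2000 (SE 0.26, adjusted p = 7.20e-05). Without IFN2000 replicate 2 the last value was 1.05 (adjusted p = 0.00274).

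**Figure D2:**
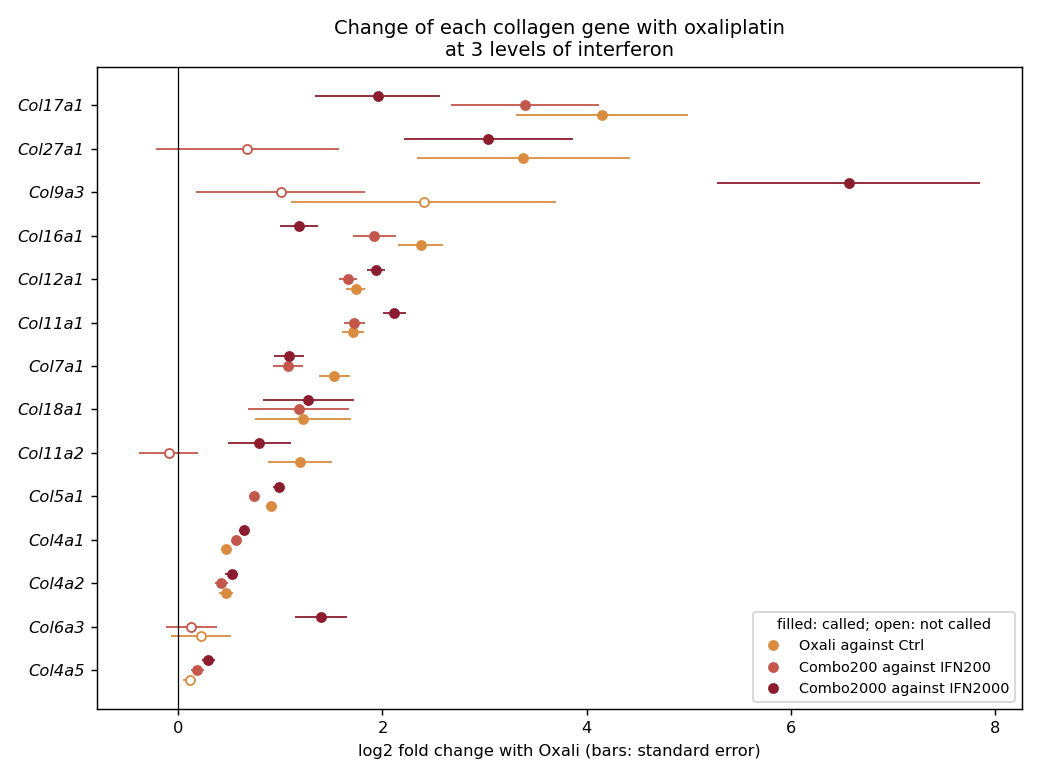
Log2 fold change with Oxali (horizontal axis) of the 14 collagen genes (vertical axis, in order of the change in Oxali against Ctrl) without IFNγ, at 200 pg and at 2000 pg, with bars of 1 standard error; filled points were called. Col17a1, Col27a1 and Col9a3 have wide bars from few counts, and the point of Col9a3 at 6.56 rests on a group with 0 counts and is no bound.

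The 4 members with few counts are given by their counts and counting intervals. Col17a1, the hemidesmosomal collagen, had 1 and 0 counts in untreated cells, 1 and 1 at 200 pg and 2 and 3 at 2000 pg of IFNγ. Oxali had 12 and 12 counts, Combo200 14 and 11 and Combo2000 8 and 14, all above the libraries without Oxali. The ratio of its rates was 21.2 in Oxali to Ctrl (exact 95% interval 3.46 to 872, from 24 against 1 counts), 11.7 in Combo200 to IFN200 (2.92 to 102) and 4.01 in Combo2000 to IFN2000 (1.48 to 13.6). Col27a1, a fibrillar collagen of developing cartilage, had 0 and 1 counts in untreated cells, 1 and 3 at 200 pg and 2 and 0 at 2000 pg of IFNγ. Oxali had 10 and 4 counts, Combo200 3 and 4 and Combo2000 9 and 11, so that 1 library of Combo200 was level in counts with 1 of IFN200. Its ratios were 12.4 (1.88 to 523), 1.64 (0.416 to 7.63) and 9.12 (2.21 to 80.4). Both genes were called in Oxali against Ctrl, Col17a1 with an adjusted p of 0.000228 and Col27a1 with 0.00750.

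Col9a3, a chain of a fibril-associated collagen of cartilage, had 1 and 0 counts in the Ctrl libraries, 4 and 1 at 200 pg and 0 and 0 at 2000 pg of IFNγ. Oxali had 1 and 6 counts, Combo200 3 and 8 and Combo2000 12 and 14. It was at least 3.99-fold higher in Combo2000 than in IFN2000, with the limit of 3 counts taken per library in the group at 0. In Oxali to Ctrl its ratio was 6.19 (0.795 to 279) and was not called. Col18a1, whose protein carries endostatin, had 4 to 9 counts without Oxali and 12 to 23 with it, and log2 fold changes of 1.22 (SE 0.47, adjusted p = 0.0271), 1.18 (SE 0.49, adjusted p = 0.0395) and 1.28 (SE 0.45, adjusted p = 0.0160). As ratios of rates these were 2.36 (1.18 to 5.025), 2.297 (1.10 to 5.13) and 2.45 (1.27 to 5.055).

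With interferon alone, collagen genes were called at 2000 pg only. In IFN200 against Ctrl 0 of 14 members were called by edgeR, 0 had an unadjusted p under 0.05, and 0 were called by DESeq2. The median log2 fold change was 0.06, and 0.114% of all genes were higher and 0% lower. In IFN2000 against Ctrl 1 member rose and 3 fell, with a median of -0.14 over the 14, where 8.39% of all genes were higher and 8.47% lower. The comparisons of Oxali, IFN200 and IFN2000 with Ctrl share the Ctrl libraries.

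Col16a1 was the member that rose with 2000 pg of IFNγ, at 0.91 on the log2 scale (SE 0.27, adjusted p = 0.0251). The 4 values given above for Ctrl and IFN2000 do not overlap. Those that fell were Col11a1 (log2 fold change -0.54, SE 0.14, adjusted p = 0.0132), Col4a5 (-0.20, SE 0.07, adjusted p = 0.0448) and Col4a1 (-0.16, SE 0.05, adjusted p = 0.0211). Col4a5 had 28.7 and 30.7 CPM in Ctrl and 25.7 and 25.8 in IFN2000. For Col12a1 the value was -0.29 (SE 0.10), which was not called (adjusted p = 0.0605).

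These 4 calls depended on single libraries. Without IFN2000 replicate 2, the library with T cell marker reads, 0 of 14 members were called, and the log2 fold changes were -0.35 for Col11a1 (adjusted p = 0.213), 0.84 for Col16a1 (adjusted p = 0.141) and -0.20 for Col4a5 (adjusted p = 0.195). Without Ctrl replicate 1 or Ctrl replicate 2 the count was also 0. Without IFN2000 replicate 3 it was 6, of which 5 were lower.

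A trend with transcript length ran through the IFN2000 libraries. Over 13043 genes the Spearman correlation of merged exon length with the log2 ratio to the Ctrl mean was -0.304 in IFN2000 replicate 2 and -0.164 in IFN2000 replicate 3. The IFN200 libraries gave 0.145 and 0.0662, the Oxali libraries 0.0531 and 0.0727, and the Combo libraries 0.0317 to 0.0704. These values are across genes, which are not independent, and the libraries share the Ctrl mean they are read against. In IFN2000 replicate 2 the median log2 ratio ran from 0.10 in the shortest of the 5 length classes to -0.12 in the longest, and in replicate 3 from 0.05 to -0.04. The median of the 14 collagen genes was -0.21 and -0.12 in these libraries. Among the libraries that combined the high dose with Oxali, read against the Oxali mean, the correlation was 0.00531 in replicate 2 and -0.152 in replicate 3, and in Combo200 it was -0.0513 and -0.128.

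With an offset per library for length and GC content, the length classes of IFN2000 against Ctrl no longer ran in order (medians from 0.02 in the shortest to 0.00 in the longest, against 0.07 to -0.08 without the offset, Spearman correlation -0.0228 against -0.254). Called members then were Col16a1, higher by 0.98 (adjusted p = 0.0173), and Col11a1, lower at -0.42 (adjusted p = 0.0321). Col4a1 was at -0.10 (adjusted p = 0.113) and Col4a5 at -0.17 (adjusted p = 0.0763). The median of the 14 members went from -0.14 to -0.07. The offset left 10, 9 and 13 members higher in the 3 comparisons with Oxali, with medians of 1.17, 0.70 and 1.02. Col18a1 lost its call in Oxali against Ctrl and in Combo200 against IFN200, and Col11a2 in Combo2000 against IFN2000. Whether length, the T cell reads or the treatment lies behind the lower values in IFN2000 was not tested.

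**Figure D3:**
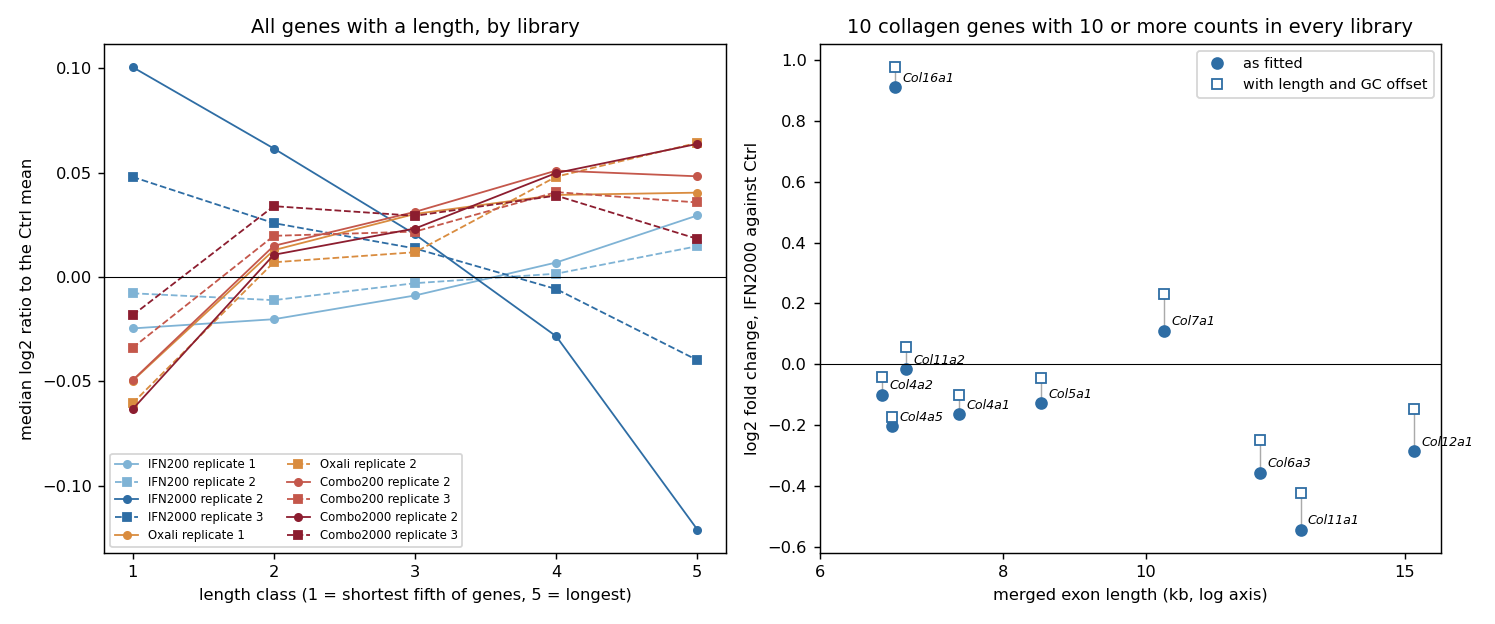
Left, the median log2 ratio to the Ctrl mean (vertical axis) in 5 length classes from shortest to longest (horizontal axis), 1 line per treated library; only the IFN2000 libraries fall from left to right, replicate 2 from 0.10 to -0.12. Right, log2 fold change in IFN2000 against Ctrl (vertical axis) by merged exon length in kb (horizontal log axis) of the 10 members with 10 counts in every library, as fitted (filled) and with the offset (open); every open square lies above its filled circle, Col11a1 at -0.42 against -0.54.

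With Oxali present, 0 members were called for IFNγ by edgeR. In Combo200 against Oxali 0 of 14 were called and 3 had an unadjusted p under 0.05, where 1.58% of all genes were higher and 0.250% lower. In Combo2000 against Oxali 0 were called and 3 had an unadjusted p under 0.05, where 3.37% were higher and 0.987% lower. Col6a3 had the smallest adjusted p there, 0.0638 at a log2 fold change of 0.82 (SE 0.24), and with the length and GC offset it was called (0.84, adjusted p = 0.0347). It was also called without IFN2000 replicate 2, and not by DESeq2, which called 0 of 14 members in either comparison.

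The interaction asks whether the change with IFNγ differs when Oxali is present, as (Combo minus Oxali) minus (IFNγ minus Ctrl) on the log2 scale. At 200 pg 0 of 14 members were called by edgeR, 0 by DESeq2 and 2 had an unadjusted p under 0.05, where 0.562% of all genes were higher and 0.137% lower. At 2000 pg 1 member was called, where 2.12% were higher and 0.600% lower. This was Col16a1 at -1.19 (SE 0.31, adjusted p = 0.0442). IFN2000 had a mean of 2.45 ± 0.176 CPM where Ctrl had 1.296 ± 0.102, and Combo2000 had 5.54 ± 0.704 where Oxali had 6.76 ± 1.10 (SD, n = 2). Without IFN2000 replicate 2 it was -1.12 (adjusted p = 0.153), and over all alternatives it stayed between -1.01 and -1.35 with adjusted p-values from 0.00102 to 0.250. The interaction of Col6a3 was 1.18 (SE 0.40, adjusted p = 0.125).

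Genes that act with collagens were read from the same fit by role, from a list of 106 of which 71 were tested. In Oxali against Ctrl 41 of 71 were higher and 19 lower, with a median log2 fold change of 0.24, beside the 34.8% higher and 32.8% lower among all genes. For 4 of the 71, Adamts14, Ciita, Nid2 and Serpinh1, 2 libraries with 10 counts were found only with Oxali, and of the other 67 there were 40 higher and 19 lower. Of 11 basement membrane partners 9 rose and 0 fell (median 0.97). Of 16 genes of TGF-β signalling and collagen transcription 14 rose and 1 fell (median 0.40). This list holds activators and inhibitors alike, so its count gives no direction of the pathway. Of 5 receptors 3 rose and 0 fell. Propeptide removal, crosslinking, and breakdown with its inhibitors had 4 genes each, of which 3 rose and 1 fell. In the last of these Ctsl (log2 fold change 0.82) and the inhibitors Timp1 (1.04) and Timp2 (0.58) rose, and Pepd (-0.16) fell. Of 17 genes of chain hydroxylation and folding 6 rose, near the share of all genes, and 8 fell, and of 10 genes of secretion 0 rose and 7 fell (median -0.42). At 200 pg of IFNγ 44 companions were higher and 19 lower with Oxali, and at 2000 pg 46 were higher and 17 lower. Among the 67 they were 40 and 19 at 200 pg, and 43 and 17 at 2000 pg. Over all genes 36.5% were higher and 33.5% lower at 200 pg, and 38.5% and 33.8% at 2000 pg. In each comparison 7 of 10 secretion genes were lower.

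Lamb3, a laminin chain that joins hemidesmosomes to the basement membrane, rose most, from 12.01 ± 0.642 CPM in Ctrl to 185 ± 0.529 in Oxali (log2 fold change 3.95, SE 0.05). Itga2, a chain of the collagen receptor integrin α2β1, rose from 1.07 ± 0.145 to 11.1 ± 1.304 CPM (3.38, SE 0.17). Adamts14, a protease that removes propeptides of fibrillar collagens, had the next largest fitted change among called genes (2.36, SE 0.53), from Ctrl libraries with 1 and 4 counts to Oxali libraries with 16 and 14. Its ratio of rates was 5.30 (exact 95% interval 2.04 to 17.5).

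Falls were smaller. Klhl12, which helps form the large transport vesicles that carry procollagen, fell from 51.8 ± 0.751 to 27.3 ± 0.215 CPM (-0.92, SE 0.06). Hspa5, the endoplasmic reticulum chaperone BiP, fell from 1400 ± 10.6 to 847 ± 33.1 CPM (-0.73, SE 0.04), and Sec13, a vesicle coat protein, from 175 ± 1.14 to 110 ± 1.38 CPM (-0.67, SE 0.04).

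**Figure D4:**
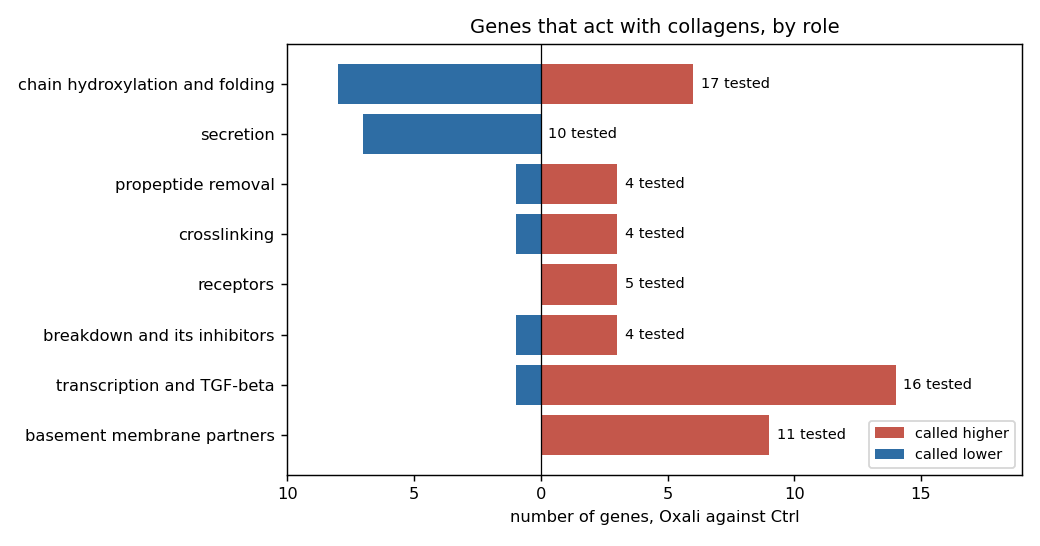
Number of genes called higher (right of 0) and lower (left of 0) in Oxali against Ctrl (horizontal axis) by their role beside collagens (vertical axis), with the number tested beside each bar. Secretion has 7 lower and 0 higher, basement membrane partners 9 higher and 0 lower.

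In IFN2000 against Ctrl 11 of the 71 companions were higher and 13 lower, and 12 and 9 with upper-quartile scaling, where 8.39% of all genes were higher and 8.47% lower. Without IFN2000 replicate 2 these were 7 and 3, without Ctrl replicate 1 they were 6 and 2 and without Ctrl replicate 2 they were 8 and 6. Timp1, an inhibitor of collagenases, rose from 43.8 ± 0.859 to 57.0 ± 2.19 CPM (log2 fold change 0.38, SE 0.05). The largest falls were the laminin chain Lamb2 from 142 ± 0.379 to 109 ± 4.61 CPM (-0.38, SE 0.05) and the TGF-β co-receptor Tgfbr3 (-0.32, SE 0.07). In IFN200 against Ctrl 0 of 71 were called by edgeR and 0 by DESeq2, and 2 had an unadjusted p under 0.05.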

How the data were processed

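RNA-seq was run on 12 libraries of Myc-CaP cells in 6 groups of 2. Per the study's methods, the authors aligned reads with STAR to GRCm38 with GENCODE gene models and counted them per gene with featureCounts. The submitters' processing notes also name STAR 2.7.3a and RSEM 1.3.0, without a role. The deposited values are raw counts per gene symbol, 1 column per library. All columns were used, and the strand setting of the counting is not given in the sources used here.

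TMM-scaled counts were tested in edgeR 4.0.16 (R 4.3.3, quasi-likelihood test, Benjamini-Hochberg adjustment over all genes tested, threshold 0.05) after filterByExpr (minimum count 10, minimum total 15), which kept 13177 of 55216 genes. The 12 libraries entered 1 model with a mean per group and 9 contrasts. SE is the size of the log2 change over the root of its F. Log2 ratios used log2 CPM with a prior count of 2. Exon lengths came from a later GENCODE release on GRCm38. The length and GC offset was fitted per library with natural splines of 5 degrees of freedom on log10 length and GC content. Ratios of genes with few counts carry exact 95% binomial intervals. Code was tested on simulated counts.

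Alternatives were DESeq2 1.42.0, RLE and upper-quartile scaling, no filter, a mean of at least 50 counts, a replicate block, the offset, the compared groups alone and leaving out each library. An offset by the longest transcript, and most alternatives for the companion genes, were added after the data were seen. The members, the lists of markers and companion genes and the tests were chosen with earlier results of these data known. By rule, values in every library are given for Col16a1, the 4 largest rises and falls among called members in Oxali against Ctrl, the 2 largest of each in other contrasts, and chains of the same trimer. Values of other members were added after they were seen. Of the companions, the 3 largest rises and falls with Oxali and 2 of each in IFN2000 are named, and others where a count needs them to be read. A few genes of these lists are not reported here.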

Additional observations from a re-analysis of the deposited data

Results flagged for a closer look

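Col16a1 was the 1 collagen gene whose change with IFNγ differed by the test with and without Oxali. The interaction at 2000 pg was -1.19 on the log2 scale (edgeR's quasi-likelihood test, SE 0.31, adjusted p = 0.0442). The change with IFNγ was 0.91 (SE 0.27) without Oxali and -0.28 (SE 0.15, adjusted p = 0.430) with it. Both IFN2000 libraries, at 2.57 and 2.32 CPM, lay above both Ctrl libraries, at 1.22 and 1.37, while the Combo2000 libraries, at 6.04 and 5.04, overlapped those of Oxali, at 5.99 and 7.54. At 200 pg the interaction was -0.45 (SE 0.34, adjusted p = 0.713). The 2000 pg value was no longer called in 10 of 22 alternatives. What lies behind it was not tested.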

How the results depend on the processing

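In the alternatives run, 0 collagen genes were called lower with Oxali at any of the 3 levels of IFNγ. Leaving out 1 library at a time left 9 to 11 members called in Oxali against Ctrl, 8 to 10 in Combo200 against IFN200 and 12 to 14 in Combo2000 against IFN2000, and DESeq2 called 9, 8 and 11. Where members needed a mean of 50 counts, 8 members were tested, and 7 and 8 were called in the first and the last of these. In IFN2000 against Ctrl the 4 calls became 2 with the length and GC offset, 2 with the offset by the longest transcript, 2 with DESeq2 and 0 to 6 when 1 library was left out. Leaving out a library gave 0 to 0 for IFN200 against Ctrl and likewise for the 200 pg interaction. In Combo200 against Oxali 1 member was called with no filter, and 0 to 1 without 1 library. In Combo2000 against Oxali it was 2 with no filter, 1 with either offset, 1 with only the groups compared and 0 to 1 without 1 library. The interaction at 2000 pg had 2 with no filter, 0 with DESeq2 and 0 to 2 without 1 library. The cause was not tested, beyond that fewer genes or libraries entered some of these fits.

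Companion genes called ranged from 54 to 61 in Oxali against Ctrl and from 8 to 25 in IFN2000 against Ctrl when 1 library was left out. Of 953 values of single members under an alternative, 866 kept their direction and their side of the threshold, 85 kept the direction only, and 2 reversed. The reversed values were not called and both belong to Col16a1 without IFN200 replicate 1, the library with heart muscle reads: -0.29 for IFN200 against Ctrl and 0.030 for the 200 pg interaction. The range without 1 library was -0.29 to 0.56 and -0.82 to 0.030.

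The mean length correlation moved to 0.0664 in Combo200 and 0.0790 in Oxali with the longest transcript, and to 0.177 in IFN200 and 0.0830 in Oxali among genes averaging 50 counts or more. For IFN2000 replicates 2 and 3 it was -0.346 and -0.187 with the longest transcript, and -0.429 and -0.224 among the genes of higher counts.

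Replicate numbers of the titles did not pair the libraries: deviations of same-numbered libraries correlated between -0.0456 and 0.0170 over 6 pairs of groups. With the number as a replicate block the calls became 0 in IFN2000 against Ctrl, also 0 with the block and the offset together, 0 in the interaction at 2000 pg, and 14 of the companions in IFN2000 against Ctrl. Few counts limit Col9a3, Col17a1, Col18a1 and Col27a1, which reach 10 counts only with Oxali.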
